A study of Rattus norvegicus with 6 samples.

Results

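The mitosis genes described here are 33 genes of cell division, chosen by symbol from a table of 37991 genes: mitotic cyclins and kinases, proteins of the kinetochore and the spindle, and proteins of cytokinesis, with motor proteins named Kif left out. All 33 symbols were found, each on 1 row, and all 33 passed the filter on low counts. Values come from RNA sequencing of cultured oligodendrocyte lineage cells of SD rats, with 3 libraries from differentiated oligodendrocytes and 3 from oligodendrocyte precursors before differentiation. Precursors were grown in Raff medium, and the differentiated cells came from a change of growth factors in that medium. The titles number the libraries 1, 2 and 5 in each group and place replicates 1 and 2 at day 3 (differentiated) and day 0 (precursor). The labels name no genotype, transgene, drug or age. Nothing in them ties a replicate to its own culture or animal, and the p-values below therefore cover the variation among these 6 libraries, part or all of which may be technical.

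A dividing cell enters mitosis when cyclins A and B activate the kinase Cdk1. Chromosomes condense and attach through their kinetochores to spindle microtubules, and the spindle checkpoint holds the cell until every chromosome is attached. The anaphase-promoting complex (APC/C) with its activator Cdc20 then marks cyclin B for destruction, and the cell divides by cytokinesis. Oligodendrocyte precursors are dividing cells of the postnatal and adult brain, and they leave the cell cycle as they become myelin-forming oligodendrocytes. Many mitosis genes share a promoter element, the cell cycle genes homology region (CHR), bound by repressing and activating complexes of the DREAM and MuvB family. It often lies downstream of CCAAT boxes, which bind the factor NF-Y.

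RefSeq promoter windows of the rat build GRCr8 were found for 27 of the 33 genes, each covering 250 bases before the gene start and 50 bases from it. Aurkb, Ccna2, Incenp, Pbk, Racgap1 and Tpx2 had none in the table. The letters searched on both strands were TTTGAA and TTTAAA for the CHR and CCAAT for the NF-Y box. A stretch of 150 bases directly before the start is shown for 7 genes whose transcripts are described below, from cyclins, Cdk1 and Cdc20 to Hmmr, Top2a and Cenpe. Capitals mark CHR letters and CCAAT boxes. On the other strand a CCAAT box reads ATTGG, and a TTTGAA element reads TTCAAA, as in Top2a.
Ccnb2 (GRCr8 chr8:79981659-79981808, minus strand): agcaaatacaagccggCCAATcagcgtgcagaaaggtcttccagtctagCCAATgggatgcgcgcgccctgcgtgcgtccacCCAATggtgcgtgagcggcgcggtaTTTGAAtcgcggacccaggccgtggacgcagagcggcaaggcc
Ccnb1 (GRCr8 chr2:33655226-33655375, minus strand): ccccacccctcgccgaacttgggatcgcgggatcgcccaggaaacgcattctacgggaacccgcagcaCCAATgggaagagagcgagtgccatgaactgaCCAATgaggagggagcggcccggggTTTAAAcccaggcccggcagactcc
Cdk1 (GRCr8 chr20:19265143-19265292, plus strand): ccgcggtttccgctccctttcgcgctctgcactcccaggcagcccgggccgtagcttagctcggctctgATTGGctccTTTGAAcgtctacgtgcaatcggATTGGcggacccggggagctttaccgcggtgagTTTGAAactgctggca
Cdc20 (GRCr8 chr5:137255800-137255949, minus strand): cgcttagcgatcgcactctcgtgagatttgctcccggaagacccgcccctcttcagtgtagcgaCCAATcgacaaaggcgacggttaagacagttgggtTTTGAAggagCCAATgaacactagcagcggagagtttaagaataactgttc
Hmmr (GRCr8 chr10:25665216-25665365, minus strand): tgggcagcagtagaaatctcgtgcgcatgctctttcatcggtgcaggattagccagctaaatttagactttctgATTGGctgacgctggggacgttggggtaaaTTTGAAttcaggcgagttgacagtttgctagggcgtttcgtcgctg
Top2a (GRCr8 chr10:84473094-84473243, minus strand): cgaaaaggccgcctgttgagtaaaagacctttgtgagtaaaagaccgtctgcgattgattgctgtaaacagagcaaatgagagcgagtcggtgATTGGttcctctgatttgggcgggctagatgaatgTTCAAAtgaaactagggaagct
Cenpe (GRCr8 chr2:226310907-226311056, plus strand): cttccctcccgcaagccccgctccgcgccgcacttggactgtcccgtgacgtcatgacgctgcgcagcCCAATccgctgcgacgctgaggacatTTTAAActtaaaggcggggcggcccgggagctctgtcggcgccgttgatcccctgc
The 150 bases of Ccnb2 hold 3 CCAAT boxes spaced 33 and 33 bases apart, followed by 1 CHR match. Those of Ccnb1 hold 2 CCAAT boxes and 1 CHR match, and those of Cdk1 hold 2 of each. A CHR match in either spelling was present in 27 of 27 windows of the mitosis genes, in 27.9% of all 27457 promoter windows and in 19.6% of the 12534 windows of genes tested here. Before the gene start alone, it was present in 22 of 27 windows (81.5%), against 17.6% of the windows of genes tested. The windows of Mad2l1, Ndc80, Nuf2 and Ttk held it only after the start, and in 1 more window the match ran across the start. A CCAAT box was present in 20 of 27 windows (74.1%), against 37.6% for genes tested. It was not found in those of Anln, Aurka, Bub1, Bub1b, Mad2l1, Ndc80 and Nuf2. In 2 places a CHR and a CCAAT match overlapped. The mean G and C content was 58.9% in windows of mitosis genes and 59.9% in those of genes tested.

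Letters like those bound by E2F factors (TTTCGCGC, TTTGGCGC or TTCCCGCC, both strands) were found in 1 of 27 windows of mitosis genes (3.7%) and in 4.92% of windows of genes tested. In a list of DNA replication genes, 17 of 34 windows held such E2F-like letters and 7 of 34 held a CHR match (20.6%). Before the start alone, E2F-like letters were in 9 of these 34 windows (26.5%) and in 1 of 27 windows of mitosis genes. Mitotic kinesins held a CHR match in 9 of 11 windows (81.8%) and E2F-like letters in 3 of 11 (27.3%). On other lists described below, 11 of 24 windows of further kinetochore genes and 11 of 22 of condensin and cohesin held a CHR match. So did 12 of 24 for entry regulators, 12 of 25 for further spindle genes and 6 of 20 for checkpoint and APC/C. E2F-like letters were in 4 of 24, 3 of 22, 4 of 24, 4 of 25 and 0 of 20 windows, in that order. CHR matches before the start alone were in 6 of 24, 8 of 22, 8 of 24, 8 of 25 and 4 of 20. These matches describe letters in a window and are not measured binding.

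**Figure D1:**
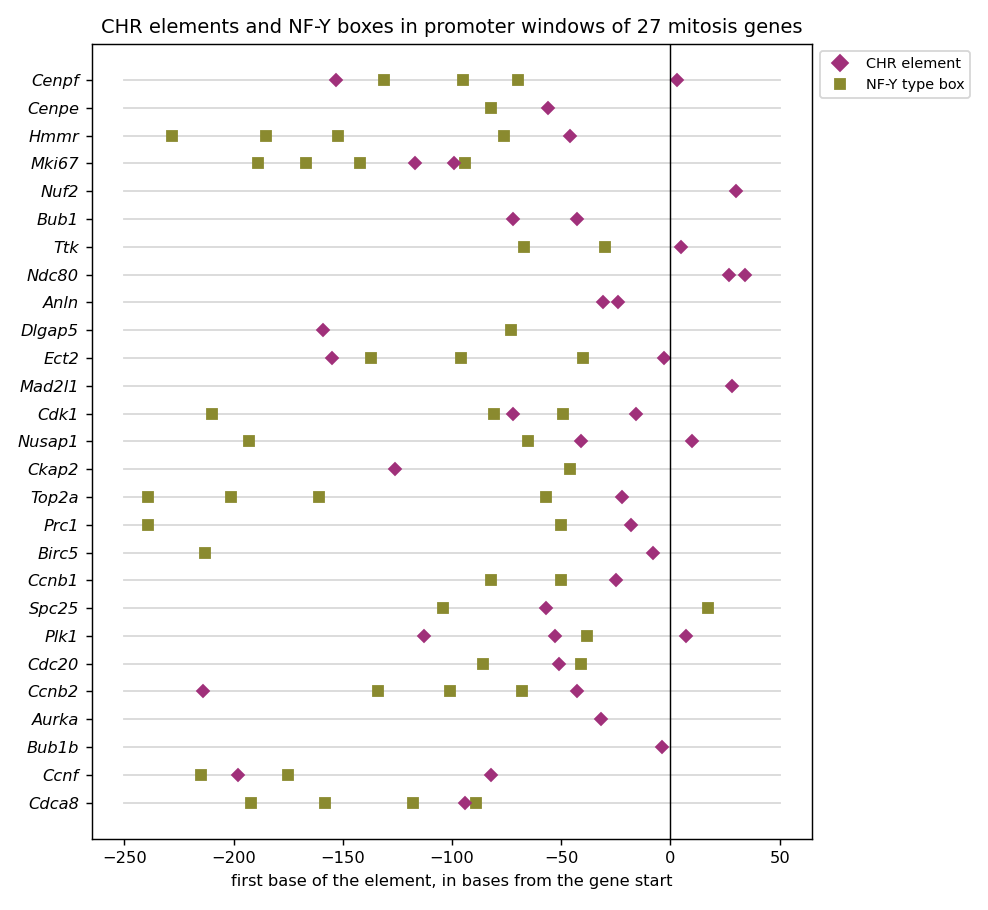
Position of CHR elements (diamonds) and NF-Y type boxes (squares) in the promoter windows of 27 mitosis genes, by the distance of the element's first base from the gene start, with negative numbers before it. Genes are ordered from the lowest fold change at the top, and all 27 have at least 1 CHR element.

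All 33 mitosis genes were lower in differentiated cells, and in all 33 the highest differentiated library lay below the lowest precursor library. Such a gap with differentiated libraries lower was seen in 13.8% of the 17797 genes tested. By edgeR's quasi-likelihood test on 3 against 3 libraries, without pairing them, 28 of the 33 fell and 0 rose at an adjusted p under 0.05. Among all genes tested, 3.21% were lower and 5.65% higher (8.86% in either direction). The 33 genes were chosen with earlier results of these data known, so these shares are a description and not a test of the list. The median log2 fold change was -0.84 over the mitosis genes and -0.04 over all genes tested. Differentiated libraries kept between 36.7% (Cenpf) and 68.8% (Cdca8) of the mean precursor level, with a median of 56.0%. Of the 33, 9 were called and at least 2-fold lower, against 1.47% of all genes tested. Among genes called lower, these were 9 of 28 mitosis genes and 261 of 571 genes in all. Each library is RNA of a whole culture, so fewer dividing cells and less of these RNAs per cell cannot be told apart.

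The 5 genes that did not pass were Aurkb, Cdca8, Incenp, Bub1b and Ccnf. Each had an unadjusted edgeR p under 0.05, as did 10.7% of all genes tested in the lower direction. With the replicate number as a block, all 33 fell, against 15.7% of genes called lower in that fit. Of the 33, 14 were called in each of 6 fits that left out 1 library, and the 5 genes above in none of them. The count of mitosis genes called was 17 without differentiated 2, 17 without differentiated 5 and 16 without precursor 2. It was 32 with both replicate 1 libraries left out. The share of all genes tested that was called lower moved the same way. It was 0.804%, 0.923%, 0.872% and 8.11% in these fits, in that order, against 3.21% with all 6 libraries. Without differentiated 2 it stood for 148 genes, so no more than 148 of all genes can be called lower in each of the 6 fits. The lowest count behind any value was 821 reads. The median coefficient of variation between libraries of a group was 11.7% in differentiated and 10.8% in precursor libraries.

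**Figure D2:**
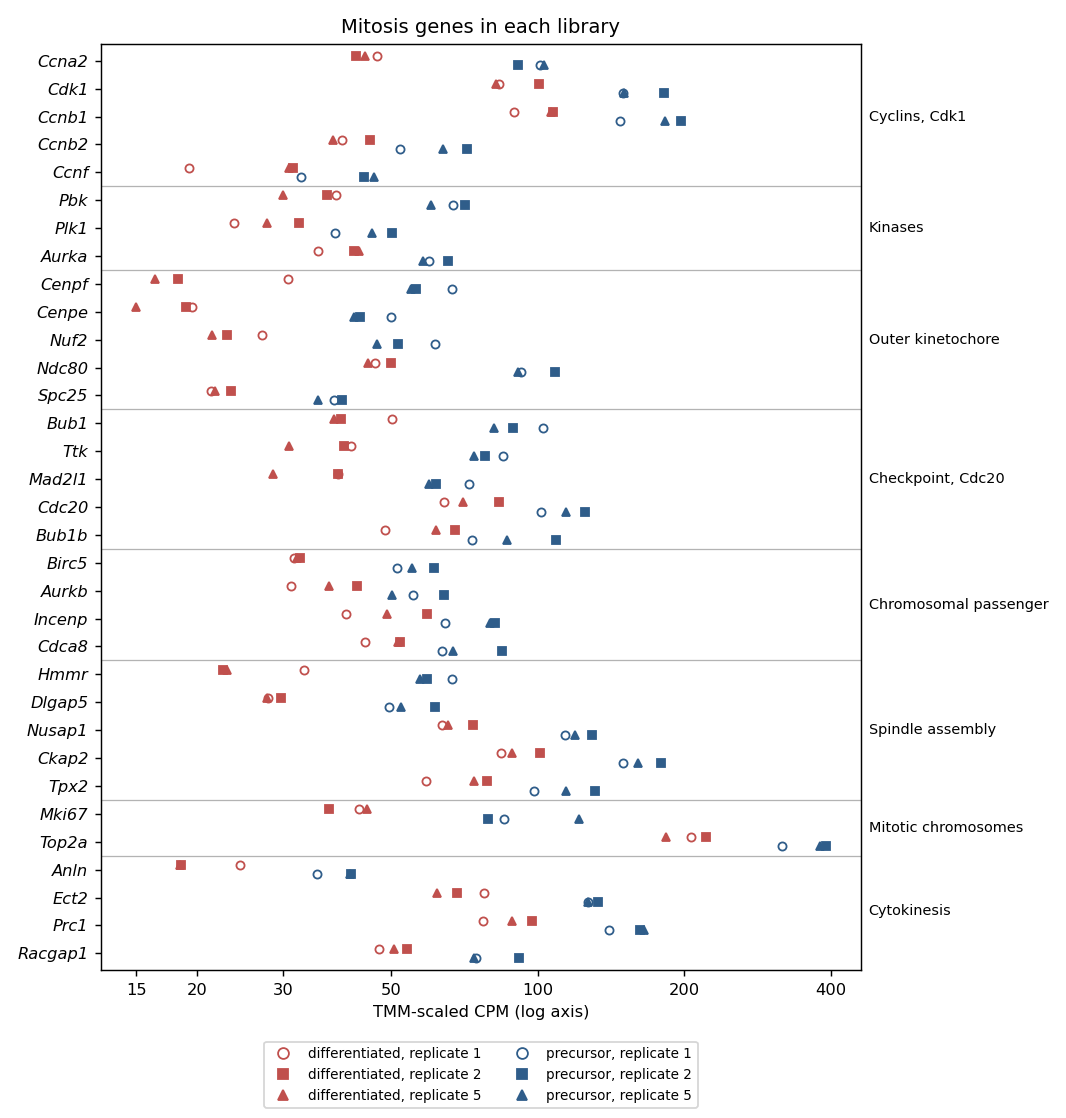
TMM-scaled CPM (log axis) of each mitosis gene in the 3 differentiated (red) and 3 precursor (blue) libraries, with marker shapes for replicates 1, 2 and 5 and genes grouped by role. No red point reaches a blue point of the same gene, and the gap is narrowest for Ccnf.

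Among cyclins and Cdk1, Ccna2, cyclin A2 of S phase and mitotic entry, had the lowest adjusted p of the 33 genes. Levels are given as CPM, which is a gene's count relative to the library total after TMM scaling in edgeR, and do not account for transcript length. Ccna2 (114494) had 46.8, 42.3 and 44.1 CPM in differentiated libraries 1, 2 and 5, against 101, 91.3 and 103 CPM in precursor libraries 1, 2 and 5. The groups were far apart and each was tight (log2 fold change -1.15, SE 0.11, edgeR adjusted p = 0.0012). Cdk1 (54237), the kinase that these cyclins activate, had 83.5, 101 and 82.2 CPM in differentiated libraries, against 150, 182 and 151 CPM in precursor libraries. Library 2 was the highest in both groups (log2 fold change -0.86, SE 0.13, edgeR adjusted p = 0.00916, and 0.0539 without differentiated 5). Ccnb1 (25203), cyclin B1, had 89.5, 108 and 106 CPM in differentiated libraries, against 148, 197 and 183 CPM in precursor libraries. Library 1 was the lowest in both groups (log2 fold change -0.80, SE 0.14, edgeR adjusted p = 0.0158, and up to 0.0715 without differentiated 2, differentiated 5, precursor 2 or precursor 5).

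Ccnb2 (363088), cyclin B2, had 39.8, 45.2 and 37.99 CPM in differentiated libraries, against 52.2, 71.8 and 63.9 CPM in precursor libraries. The call was close to the threshold (log2 fold change -0.61, SE 0.15, edgeR adjusted p = 0.0483) and held in 1 of 6 fits without a library, that without precursor 1, with an adjusted p of up to 0.1755 in the others. Ccnf (117524), cyclin F, a substrate adaptor of a ubiquitin ligase, had 19.3, 31.4 and 30.9 CPM in differentiated libraries, against 32.6, 44.0 and 46.2 CPM in precursor libraries. Replicate 1 was the lowest library of both groups, and precursor 1 lay only 1.04-fold above differentiated 2 (log2 fold change -0.59, SE 0.23, edgeR adjusted p = 0.176, and 0.00346 with the block).

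The 5 genes of the outer kinetochore all fell, with log2 fold changes between -1.45 and -0.76 and a median of -1.16. Cenpf (257649), a large coiled-coil protein of the kinetochore and nuclear matrix, had the lowest fold change of the 33. It had 30.7, 18.3 and 16.4 CPM in differentiated libraries, against 66.8, 56.3 and 55.0005 CPM in precursor libraries. Replicate 1 was the highest library of both groups, and most clearly so of the differentiated one. The log2 fold change was -1.45 with SE 0.25 (edgeR adjusted p = 0.0138). That call was lost without differentiated 2, differentiated 5 or precursor 2, with an adjusted p of up to 0.0706.

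Cenpe (362044), the kinesin motor CENP-E that carries chromosomes to the spindle equator, had 19.5, 19.0 and 14.9 CPM in differentiated libraries, against 50.04, 43.2 and 41.9 CPM in precursor libraries. Its lowest precursor library was 2.15-fold above its highest differentiated library, a wider gap than in the other 32 genes (log2 fold change -1.34, SE 0.15, edgeR adjusted p = 0.00252). Ndc80, Nuf2 and Spc25 are 3 subunits of the complex that binds microtubule ends. Ndc80 (301701) had 46.3, 49.96 and 44.8 CPM in differentiated libraries, against 92.4, 109 and 91.3 CPM in precursor libraries (log2 fold change -1.05, SE 0.12, edgeR adjusted p = 0.0024). Nuf2 (304951) had 27.1, 23.0 and 21.4 CPM in differentiated libraries, against 61.7, 51.7 and 46.8 CPM in precursor libraries (log2 fold change -1.16, SE 0.15, edgeR adjusted p = 0.00475). Both were near 2-fold lower, with no library of either group close to the other group. Spc25 (295661) averaged 22.2 ± 1.11 CPM in differentiated and 37.7 ± 2.14 CPM in precursor libraries (SD, n = 3 each), a log2 fold change of -0.76 with SE 0.12 (edgeR adjusted p = 0.00788, and 0.0501 without precursor 2).

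Spindle checkpoint genes and their target Cdc20 fell in 4 of 5 cases. Bub1 (296137), a checkpoint kinase at kinetochores, had 50.2, 39.4 and 38.1 CPM in differentiated libraries, against 102, 89.2 and 81.4 CPM in precursor libraries (log2 fold change -1.09, SE 0.15, edgeR adjusted p = 0.00561). Ttk (315852), the kinase Mps1 that starts checkpoint signalling, had 41.4, 40.0 and 30.9 CPM in differentiated libraries, against 85.1, 78.2 and 73.9 CPM in precursor libraries (log2 fold change -1.08, SE 0.14, edgeR adjusted p = 0.00482). Replicate 1 was the highest library of both groups for each kinase, and the groups were at least 1.62-fold apart. Mad2l1 (297176), which binds and inhibits Cdc20, averaged 35.5 ± 6.004 CPM in differentiated and 64.7 ± 6.66 CPM in precursor libraries (SD, n = 3 each). Its log2 fold change was -0.87 with SE 0.16 (edgeR adjusted p = 0.0177, and up to 0.0685 without differentiated 2, differentiated 5 or precursor 2).

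Cdc20 (64515), the APC/C activator that the checkpoint restrains, had 64.1, 83.2 and 70.3 CPM in differentiated libraries, against 102, 125 and 115 CPM in precursor libraries. The groups were separate by 1.22-fold (log2 fold change -0.65, SE 0.14, edgeR adjusted p = 0.0298). That call held in 1 of 6 fits without a library, that without precursor 1, with an adjusted p of up to 0.126 in the others. Bub1b (171576), the checkpoint protein BubR1, had 48.5, 67.7 and 61.9 CPM in differentiated libraries, against 73.5, 109 and 86.5 CPM in precursor libraries. Precursor 1 lay only 1.09-fold above differentiated 2 (log2 fold change -0.59, SE 0.19, edgeR adjusted p = 0.105, and 0.00175 with the block).

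The chromosomal passenger complex, which corrects wrong attachments and later directs cytokinesis, had 1 of its 4 genes called. Birc5 (64041), survivin, had 31.6, 32.6 and 32.1 CPM in differentiated libraries, against 51.6, 61.2 and 55.2 CPM in precursor libraries. The differentiated libraries were almost equal (log2 fold change -0.80, SE 0.11, edgeR adjusted p = 0.00561). Aurkb (114592), the kinase of the complex, had 31.2, 42.5 and 37.3 CPM in differentiated libraries, against 55.6, 64.2 and 50.2 CPM in precursor libraries (log2 fold change -0.61, SE 0.16, edgeR adjusted p = 0.0552, and 0.00451 with the block). Incenp (293733), its scaffold, had 40.5, 59.2 and 49.1 CPM in differentiated libraries, against 64.5, 81.6 and 80.0 CPM in precursor libraries (log2 fold change -0.60, SE 0.17, edgeR adjusted p = 0.0771, and 0.00213 with the block). Cdca8 (500545), borealin, had 44.3, 52.3 and 51.6 CPM in differentiated libraries, against 63.7, 84.4 and 67.2 CPM in precursor libraries (log2 fold change -0.54, SE 0.14, edgeR adjusted p = 0.0651, and 0.00454 with the block). The groups of these 3 genes did not overlap, with a gap of 1.18-fold for Aurkb, 1.09-fold for Incenp and 1.22-fold for Cdca8. Whether these subunits fell less than the kinetochore genes was not tested.

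**Figure D3:**
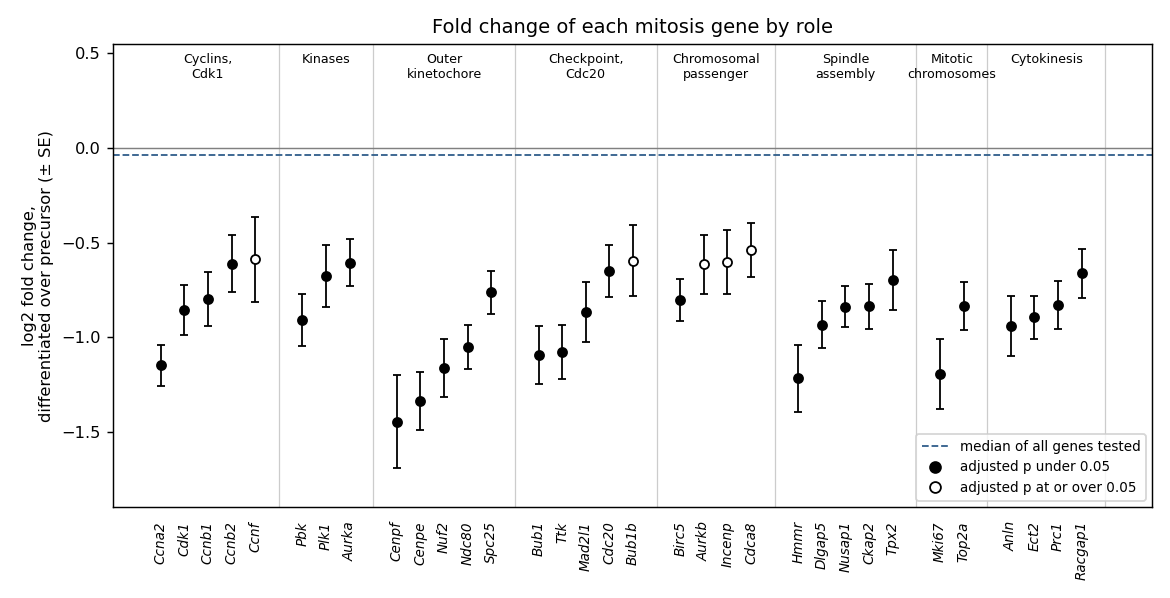
Log2 fold change (differentiated over precursor, ± SE of the edgeR fit) of the 33 mitosis genes by role, with filled points for the 28 genes at an adjusted p under 0.05 and a dashed line at the median of all genes tested, -0.04. Fold changes run from -1.45 for Cenpf to -0.54 for Cdca8.

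Among the remaining mitotic kinases, Pbk (290326), a kinase of dividing cells, averaged 35.2 ± 4.61 CPM in differentiated and 66.1 ± 5.31 CPM in precursor libraries (SD, n = 3 each). Its log2 fold change was -0.91 with SE 0.14 (edgeR adjusted p = 0.00787). Plk1 (25515), the polo kinase of mitotic entry and spindle formation, had 23.8, 32.4 and 27.8 CPM in differentiated libraries, against 38.3, 50.3 and 45.7 CPM in precursor libraries. Replicate 1 was lowest and replicate 2 highest in both groups (log2 fold change -0.68, SE 0.16, edgeR adjusted p = 0.047, and up to 0.162 in the 5 fits without a library in which the call was lost). Aurka (261730), the kinase of spindle poles, averaged 40.2 ± 4.12 CPM in differentiated and 61.2 ± 3.89 CPM in precursor libraries. Its log2 fold change was -0.61 with SE 0.12 (edgeR adjusted p = 0.0249, and up to 0.103 in the 5 fits in which the call was lost). For Plk1 and Aurka, the fit that kept the call was that without precursor 1.

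All 5 genes of spindle assembly fell. Hmmr (25460), a microtubule-associated protein also known as a hyaluronan receptor, had 33.2, 22.6 and 23.1 CPM in differentiated libraries, against 66.7, 59.3 and 57.3 CPM in precursor libraries. Replicate 1 was the highest of both groups (log2 fold change -1.22, SE 0.18, edgeR adjusted p = 0.00684). Dlgap5 (289997), which stabilises microtubules near chromosomes, averaged 28.5 ± 1.07 CPM in differentiated and 54.5 ± 6.25 CPM in precursor libraries (SD, n = 3 each), a log2 fold change of -0.94 (SE 0.12, edgeR adjusted p = 0.00475). Nusap1 (311336), which bundles spindle microtubules, averaged 67.6 ± 5.44 CPM in differentiated and 121 ± 7.81 CPM in precursor libraries, and Ckap2 (306575), which promotes microtubule growth, averaged 91.3 ± 8.69 CPM in differentiated and 163 ± 14.8 CPM in precursor libraries. Their log2 fold changes were both -0.84, at edgeR adjusted p = 0.00465 and 0.00629. Tpx2 (311546), which activates Aurora A and nucleates microtubules, had 59.0, 78.9 and 74.1 CPM in differentiated libraries, against 98.3, 131 and 115 CPM in precursor libraries. Its fold change was the nearest to 0 of these 5 (log2 fold change -0.70, SE 0.16, edgeR adjusted p = 0.0375). The call held only without precursor 1 among the 6 fits without a library, with an adjusted p of up to 0.133 in the others.

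Top2a and Mki67 act on mitotic chromosomes themselves. Top2a (360243), the topoisomerase that untangles sister chromatids, had more counts than any other of the 33 genes. It had 207, 222 and 183 CPM in differentiated libraries, against 318, 392 and 380 CPM in precursor libraries, at a log2 fold change of -0.83 with SE 0.13 (edgeR adjusted p = 0.00809). The lowest precursor library was 1.44-fold above the highest differentiated library. Mki67 (291234), the proliferation marker that coats mitotic chromosomes, had 43.1, 37.4 and 44.7 CPM in differentiated libraries, against 85.2, 79.3 and 122 CPM in precursor libraries. Precursor 5 stood well above the other 2 precursor libraries (log2 fold change -1.19, SE 0.18, edgeR adjusted p = 0.00886, and 0.0544 without differentiated 2).

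All 4 genes of cytokinesis fell. Ect2 (361921), the exchange factor that activates RhoA at the cleavage furrow, had 77.6, 68.4 and 62.3 CPM in differentiated libraries, against 127, 133 and 127 CPM in precursor libraries. The precursor libraries were almost equal (log2 fold change -0.90, SE 0.11, edgeR adjusted p = 0.0042). Racgap1 (315298), the centralspindlin subunit that binds Ect2, averaged 50.6 ± 3.37 CPM in differentiated and 80.1 ± 10.1 CPM in precursor libraries (SD, n = 3 each). Its log2 fold change was -0.66 with SE 0.13 (edgeR adjusted p = 0.0211, and up to 0.0927 without differentiated 1, differentiated 2, differentiated 5 or precursor 2). Prc1 (308761), which bundles the midzone microtubules, averaged 87.9 ± 10.1 CPM in differentiated and 156 ± 14.0 CPM in precursor libraries, a log2 fold change of -0.83 (SE 0.13, edgeR adjusted p = 0.00869, and 0.0517 without precursor 2).

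Anln (363031), anillin, is a scaffold of the contractile ring and in mouse is also a protein of mature myelin. It had 24.5, 18.5 and 18.4 CPM in differentiated libraries, against 35.3, 41.3 and 41.2 CPM in precursor libraries. Library 1 was the highest differentiated and the lowest precursor library (log2 fold change -0.94, SE 0.16, edgeR adjusted p = 0.0122). Between same-numbered libraries the log2 fold change of Anln was -0.53 for replicate 1, -1.16 for replicate 2 and -1.16 for replicate 5. The call was lost without differentiated 2, differentiated 5 or precursor 2, with an adjusted p of up to 0.0726.

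Levels of different genes can be set side by side only per transcript length, for which the deposited TPM serves. Between the groups, TPM shows a larger fall than TMM-scaled CPM. On log2(TPM + 1) the median log2 fold change was -1.07 for the 33 genes and -0.17 for all genes tested. With TMM these medians were -0.84 and -0.04. Cdk1 had the highest TPM of the 33, with 71.8 ± 12.8 TPM in differentiated and 156 ± 29.95 TPM in precursor libraries (SD, n = 3 each). Top2a, which led by counts, had 39.3 ± 4.75 TPM in differentiated and 85.4 ± 21.7 TPM in precursor libraries. At the other end Cenpf had 2.02 ± 0.45 TPM in differentiated and 6.74 ± 0.63 TPM in precursor libraries, and Cenpe had 2.14 ± 0.24 TPM in differentiated and 6.599 ± 0.62 TPM in precursor libraries. Ccnb1 had 29.9 ± 6.27 TPM in differentiated and 62.8 ± 17.1 TPM in precursor libraries. Ccnb2 had 26.7 ± 3.997 TPM in differentiated and 49.6 ± 13.5 TPM in precursor libraries, so that the 2 B cyclins differed by less than 1 SD of Ccnb1 within each group.

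The 33 genes did not share 1 order of libraries within a group. Library 2 was the highest of both groups for 18 genes and library 1 for 7 genes, namely Cenpf, Cenpe, Hmmr, Nuf2, Bub1, Ttk and Mad2l1. Within single groups, differentiated 2 was the highest for 20 of the 33 and precursor 2 for 22, against 25.8% and 28.6% of all genes tested. Differentiated 1 was the highest for 11 and precursor 1 for 7, against 41.5% and 39.3% of all genes tested. Library 1 was the lowest of both groups for 12 genes, among them Ccnb1, Plk1, Cdc20, Tpx2, Bub1b, Ccnf, Incenp and Cdca8. As no gene of the 33 overlapped between groups, fold changes between same-numbered libraries had to be negative for 33 of 33 genes in each pair. That sign is therefore no separate result. The medians of these fold changes were -0.82 for replicate 1, -0.83 for replicate 2 and -0.88 for replicate 5 on the log2 scale. A value below 0 in all 3 pairs was seen in 32% of all genes tested.

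Other genes of mitosis, on lists that hold none of the 33, were also lower in differentiated cells in many cases. Among all genes tested, 3.21% fell and 5.65% rose, which are the shares to set beside each list count below. These lists were also chosen with earlier results of these data known, and the counts describe them without testing them. Of 27 further kinetochore and centromere genes tested, 12 fell and 0 rose, with a median log2 fold change of -0.82. Knl1, the scaffold that recruits Bub1, averaged 15.3 ± 3.19 CPM in differentiated and 39.2 ± 6.25 CPM in precursor libraries (SD, n = 3 each, log2 fold change -1.36, edgeR adjusted p = 0.00653). Dsn1, of the Mis12 complex, averaged 17.8 ± 0.92 CPM in differentiated and 38.4 ± 2.47 CPM in precursor libraries (log2 fold change -1.11, edgeR adjusted p = 0.00215). Zwint, which links Knl1 to the checkpoint, was chosen after its values were seen. It averaged 359 ± 28.2 CPM in differentiated and 346 ± 34.5 CPM in precursor libraries (edgeR adjusted p = 0.836).

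Of 25 genes of condensin, cohesin and separase, 9 fell and 0 rose (median log2 fold change -0.52). The called genes with the lowest fold changes were Sgo1, the protector of centromeric cohesion, at -1.30 and Esco2, a cohesin acetyltransferase, at -1.20 (edgeR adjusted p = 0.00281 and 0.0215, the second up to 0.088 without differentiated 2 or precursor 2). Of 27 regulators of mitotic entry and the late cell cycle tested, 11 fell and 0 rose (median -0.57), led by Mastl, the Greatwall kinase, at -1.12 and Plk4, the kinase of centriole duplication, at -1.02 (edgeR adjusted p = 0.00305 and 0.0103, the second up to 0.0629 without differentiated 2 or differentiated 5). Of 26 further spindle and cytokinesis genes tested, 10 fell and 1 rose (median -0.59). Cep55, of the midbody, and Shcbp1, which binds centralspindlin, both fell by 1.17 on the log2 scale (edgeR adjusted p = 0.0169 and 0.0237). The 1 that rose was Haus8, a subunit of the augmin complex, with 33.9 ± 3.41 CPM in differentiated and 19.8 ± 4.69 CPM in precursor libraries (SD, n = 3 each, log2 fold change 0.78, edgeR adjusted p = 0.049). Its call held in 1 of 6 fits without a library, that without precursor 2, with an adjusted p of up to 0.165 in the others.

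In the list of the spindle checkpoint and APC/C, 5 of 26 genes fell and 0 rose, with a median log2 fold change of -0.13. Trip13, which remodels Mad2, was at -1.13 and Fbxo5, the APC/C inhibitor Emi1, at -1.01 (edgeR adjusted p = 0.00391 and 0.0167). The 14 core subunits of the APC/C were split from this list after the values were seen. None of the 14 was called by edgeR without a block, 2 had an unadjusted p under 0.05, and with the block 2 were lower and 2 higher. With the block 15.7% of all genes tested were lower. Their log2 fold changes lay between -0.46 and 0.25. The level of Cdc20 as a ratio to the summed subunits, which no scaling of libraries can alter, was 0.0418, 0.0524 and 0.0462 in differentiated libraries, against 0.0685, 0.0767 and 0.0747 in precursor libraries. The groups did not overlap. Cdc20 alone did not overlap either, and the subunits were chosen after their values were seen. The gap in this ratio is therefore no separate support.

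Of 12 mitotic kinesins, 9 fell and 0 rose (median log2 fold change -0.93), with Kif18a at -1.37 and Kif20b at -1.13 (edgeR adjusted p = 0.0222 and 0.0292). Of 39 DNA replication genes, 23 fell and 0 rose (median -0.69), with Dbf4, the activator of the Cdc7 kinase, at -1.20 (edgeR adjusted p = 0.0194). With the replicate block the genes called lower numbered 26 of 27 other kinetochore genes, 20 of 25 for condensin and cohesin, 20 of 27 entry regulators, 19 of 26 other spindle genes, 9 of 26 for checkpoint and APC/C, 12 of 12 kinesins and 38 of 39 replication genes. Genes called higher with the block were 1 entry regulator, 1 other spindle gene and 2 of checkpoint and APC/C. Among all 17797 genes tested with the block, 15.7% were lower and 2643 genes were higher. With both replicate 1 libraries left out, the lower counts in that order of lists were 19, 16, 14, 14, 7, 11 and 30, beside 8.11% of all genes. Leaving out single libraries also moved the counts of these 7 lists, which were lowest without differentiated 2, differentiated 5 or precursor 2. In those fits 0.804%, 0.923% and 0.872% of all genes were lower. Leaving out differentiated 1 or precursor 5 also lowered those of entry regulators and other spindle genes by over 1.5 times, and precursor 5 that of DNA replication. Cep55, Shcbp1, Fbxo5, Kif18a, Kif20b and Dbf4 each lost the call without any of differentiated 2, differentiated 5 and precursor 2, with an adjusted p of up to 0.124. The lowest counts were 5 for other kinetochore genes, 5 for condensin and cohesin, 3 for entry regulators, 1 for other spindle genes, 2 for checkpoint and APC/C, 5 for kinesins and 7 for replication.

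**Figure D4:**
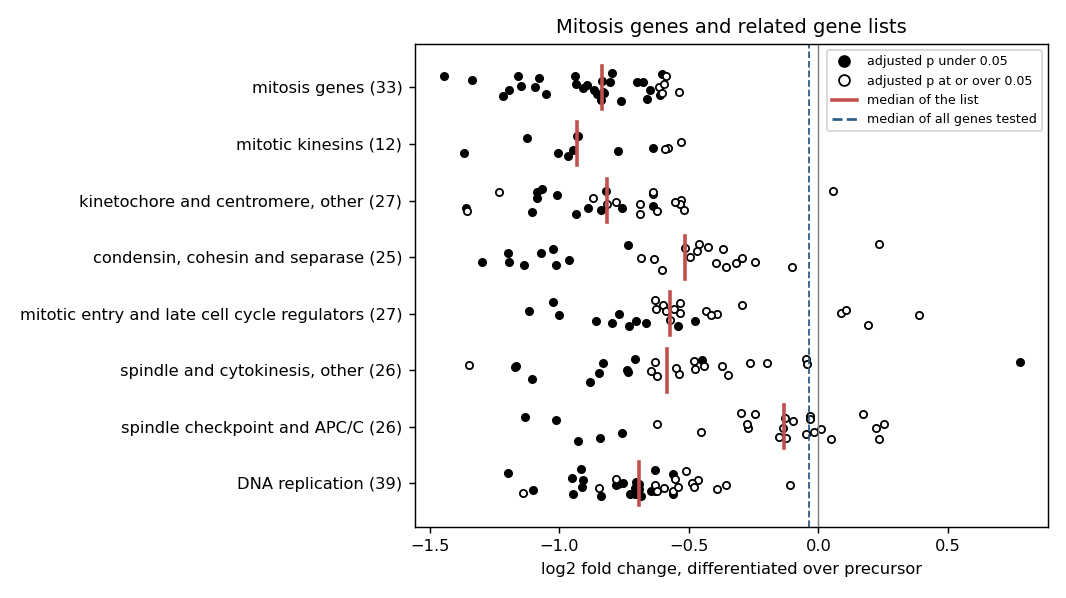
Log2 fold change (differentiated over precursor) of the 33 mitosis genes and of 7 related lists, 1 point per gene tested, filled where the edgeR adjusted p was under 0.05, with red bars at list medians and a dashed line at the median of all genes tested. Medians run from -0.93 for mitotic kinesins to -0.13 for the checkpoint and APC/C list.

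Total counts per library ran from 55522101 to 79898629, and the 33 genes took 0.149% to 0.176% of them in differentiated and 0.284% to 0.346% in precursor libraries. The noncoding RNA Rn7sl1 took 9.55% to 12.5% of counts in differentiated and 5.93% to 9.98% in precursor libraries. Markers of differentiated oligodendrocytes rose in 10 of 10 cases, among them Mbp, of the myelin sheath, with a log2 fold change of 4.07. Of 7 genes listed as precursor markers, 0 were called in either direction by edgeR. Gpr17 and Sox10 had an unadjusted p under 0.05, both higher in differentiated libraries (log2 fold change 1.42 and 1.10). The other log2 fold changes were -0.23 for Pdgfra, -0.39 for Ptprz1, 0.32 for Cspg4, 0.05 for Olig1 and 0.30 for Olig2. With the block 1 of the 7 was lower (Ptprz1) and 4 were higher (Cspg4, Gpr17, Olig2 and Sox10). Whether this list separates precursors from differentiated cells was not tested. Of 10 astrocyte markers 4 rose and 0 fell (8 higher and 0 lower with the block), and their summed level ran from 7904 to 8194 CPM in differentiated and from 4351 to 6144 CPM in precursor libraries. Microglia markers summed to 356 to 711 CPM in differentiated and 398 to 1056 CPM in precursor libraries, highest in replicate 1 of both groups, with 0 of 9 called by edgeR (0 at an unadjusted p under 0.05, and 4 lower with the block). Fibroblast and pericyte markers summed to 42.5 to 186 CPM in differentiated and 75.5 to 301 CPM in precursor libraries, with 1 of 6 tested higher, 5 lower and 1 higher with the block, and Rgs5 at 0 reads in every library. Neuron markers summed to 233 to 277 CPM in differentiated and 223 to 402 CPM in precursor libraries, with 1 of 9 tested lower, and 2 with the block. Endothelium markers summed to 14.5 to 28.6 CPM in differentiated and 12.3 to 39.3 CPM in precursor libraries, with 0 of 5 tested called by edgeR (0 at an unadjusted p under 0.05 and 0 with the block) and Cldn5 at 0 reads in every library. For the marker counts, the shares over all genes tested were 3.21% lower and 5.65% higher. With the block 15.7% of all 17797 genes were lower and 2643 genes were higher. The part of these cell types in the change of mitosis genes was not tested.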

How the data were processed

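RNA was measured in 3 differentiated and 3 precursor libraries, grouped by their condition labels. Per the submitters' processing notes, the tools named were HISAT2 2.1.0, StringTie 2.1.3b, Trimmomatic 0.38 and bcl2fastq 2.20.0, with no roles given there. The build those notes name is human GRCh38, whereas the deposited gene identifiers are rat, and the rat annotation is not given in the sources used here. The authors deposited read counts per gene that are not normalized. The deposited TPM values, scaled by the authors for transcript length and library total, served for levels between genes and for alternatives. The deposited FPKM values, scaled by the authors for length and library size, were not used.

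Counts were tested with edgeR 4.0.16 in R 4.3.3 (quasi-likelihood, robust, TMM scaling, its low-count filter) on 17797 genes, with Benjamini-Hochberg adjustment over all of them and a threshold of 0.05. The procedure was tested on simulated data. SE is the log2 fold change divided by the square root of F. No source used here states whether counting used strand, and reads of overlapping antisense genes cannot be told apart. Alternatives used limma 3.58.1 and DESeq2 1.42.0. The 33 genes and the lists were chosen with earlier results of these data known. All 33 genes are named. Except for a gene that is not reported here, from each related list the 2 called genes with the largest absolute change and at least 5 CPM in the higher group are named, plus any called against the list's main direction.

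Whether replicate numbers pair the libraries was checked on deviations of log2(CPM + 0.5) from group means, since the labels do not state a pairing. Same-numbered libraries correlated at 0.642, 0.395 and 0.566 for numbers 1, 2 and 5, and the highest correlation between different numbers was 0.156. Deviations within a group sum to 0, which makes the check weak. The numbers were therefore used as pairs only in the fit with the replicate block and in descriptive comparisons of same-numbered libraries. The main test did not use them, so its calls, 28 of 33, ignore any pairing, and the block gave 33 of 33.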

Additional observations from a re-analysis of the deposited data

How the results depend on the processing

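Direction was the same for all 33 mitosis genes under all 14 alternatives: of 462 values, 0 reversed, 54 lost the call and 16 gained it. The alternatives reuse the same 6 libraries, whose groups did not overlap for any of the 33 genes. A reversed direction could therefore hardly occur, and its absence is no separate support. The mitosis genes called lower numbered 27 with RLE size factors, 30 with library size alone, 28 without the filter on low counts, 32 with DESeq2, 24 and 26 with limma-trend on log2(TPM + 1) and log2(TPM + 0.1), and 33 with the replicate block. Of all genes tested, 3.35%, 5.65%, 2.1%, 7.03%, 5.62%, 6.12% and 15.7% were called lower in those fits, in that order. Leaving out each library in turn gave 16 to 28 mitosis genes, and 0.804% to 3.05% of all genes tested. The median log2 fold change of the mitosis genes was -0.99 with library size alone and -1.07 and -1.09 on the 2 TPM scales. The median of all genes also moved there, to -0.19, -0.17 and -0.26. Relative to the median of all genes, that of the mitosis genes was -0.80, -0.90 and -0.83 in these 3 fits, against -0.80 with TMM. Without single libraries the median of the 33 genes ran from -0.90 to -0.77, and relative to all genes from -0.89 to -0.73.

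Over all genes, 571 were lower and 1005 higher. The lower count was 1006 with library size alone, 1252 with DESeq2, 1000 and 1090 on the TPM scales, 2797 with the replicate block, 1462 with both replicate 1 libraries left out, and 148 to 561 without single libraries. The higher count was 1521 with DESeq2, 487 and 509 on the TPM scales, 2643 with the block, 1529 with both replicate 1 libraries left out, and 484 to 947 without single libraries. Of all calls 63.8% were higher with TMM and 40.3% with library size alone. The share of promoter windows with a CHR match was 81.5% in the 250 bases before the start, against 27 of 27 windows in full. The block changed the call of Aurkb, Cdca8, Incenp, Bub1b and Ccnf and of no other of the 33 genes. The causes of these shifts were not tested.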

Other observations

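Ratios between summed CPM within a library do not depend on how libraries are scaled, and a few are given here as values, chosen after the single genes were seen. The 33 mitosis genes summed to 0.779, 0.775 and 0.765 of the DNA replication list in differentiated libraries 1, 2 and 5, against 0.857, 0.868 and 0.924 in precursor libraries 1, 2 and 5. The groups did not overlap, with the lower ratio in the differentiated libraries. Relative to mitotic kinesins the ratio was 3.34, 3.18 and 3.18 in differentiated libraries, against 3.38, 3.29 and 3.45 in precursor libraries, and here the groups overlapped, with the lower ratio in the differentiated library of each of the 3 same-numbered pairs.

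The outer kinetochore genes summed to 0.983, 0.717 and 0.701 of the chromosomal passenger genes in differentiated libraries, against 1.31, 1.03 and 1.07 in precursor libraries. The groups did not overlap, but differentiated 1 came near precursor 2, and replicate 1 was the highest library of both groups. Among the roles, outer kinetochore genes had the lowest median log2 fold change (-1.16) and chromosomal passenger genes the highest (-0.61). As these roles were chosen after the values were seen, the gap in their ratio is no separate support. Ccnb1 over Cdk1 was 1.07, 1.07 and 1.30 in differentiated libraries, against 0.99, 1.08 and 1.22 in precursor libraries, with overlapping groups. Ccna2 over Cdk1 was 0.561, 0.420 and 0.537 in differentiated libraries, against 0.677, 0.502 and 0.684 in precursor libraries, also with overlap and with the lower ratio in the differentiated library of each of the 3 pairs.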
